A study of Mus musculus with 6 samples.

Results

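The matrix metalloproteinases (Mmp), the ADAM and ADAMTS proteinases, the ADAMTS-like proteins (Adamtsl) and the tissue inhibitors of metalloproteinases (Timp) were examined in osteoclast cultures. Their members were taken by gene symbol, which gave 84 genes and 165 probes of the 37074 gene names and 56605 probes on the array. Osteoclasts were grown from bone marrow of 3 Ano1fl/fl mice, whose Ano1 gene carries loxP sites, and of 3 littermates of the genotype Ctsk-Cre;Ano1fl/fl, in which Cre under the cathepsin K promoter is meant to delete it. Both groups therefore carry the floxed allele, and both received RANKL for 5 days. The methods for osteoclast cultures state marrow donors aged 6 to 8 weeks, RANKL at 50 ng/ml and the growth factor M-CSF at 30 ng/ml. Cre from this promoter acts only in cells that have turned on cathepsin K, so a culture of marrow cells can keep cells with an intact gene. RNA was hybridised to 1 single-colour Agilent array per mouse.

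Most of these enzymes are made as inactive zinc proteinases and work outside the cell or at its surface. Mmp enzymes cut collagens and other matrix proteins, ADAM enzymes release the outer parts of membrane proteins, and ADAMTS enzymes trim procollagens and cut proteoglycans. Timp proteins block the active site of many of them. In bone, osteoclasts are known for Mmp9 and Mmp14, whereas Mmp2 and Mmp13 are better known from stromal cells and osteoblasts.

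The Ano1 probe was not well above background on any of the 6 arrays, so it could not check the genotypes, and each direction below follows the labels of the arrays. No spot was saturated. Osteoclast markers had a summed signal of 425000 to 475000 on the Ctsk-Cre;Ano1fl/fl arrays against 143000 to 155000 on the Ano1fl/fl arrays, and 7 of 9 were higher past 2-fold. The study describes lower mRNA of osteoclast markers, Mmp9 included, in cultured osteoclasts of this genotype, so the direction by the array labels is opposite to the study's. Stromal markers were higher as well, for 11 of 12 genes, with a summed signal of 64900 to 108000 against 2910 to 3900. Neutrophil markers were lower for 5 of 10 genes, with a summed signal of 212000 to 265000 against 320000 to 337000. Of 10 macrophage markers 0 were higher and 2 lower past 2-fold, with a median log2 difference of -0.08. Their summed signal was 422000 to 480000 against 425000 to 455000. On the Ano1fl/fl arrays, 9 of the 12 stromal markers were well above background on all 3, Postn on 1, and Lum and Pdgfra on none. The part of these cell types in the results below was not tested, and in RNA from a whole culture more cells of a type and more RNA per cell cannot be told apart.

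A probe was tested with limma where all 3 arrays of a group read it well above background, which held for 42 of the 84 genes, each taken by its brightest probe. A gene was called where the p adjusted over all probes was under 0.05 and the fitted change was more than 2-fold, which is 1 on the log2 scale. On the Ctsk-Cre;Ano1fl/fl arrays 17 of the 42 were higher, or 40.5%, and 2 were lower, or 4.76%. Over all 20650 genes tested, 9.9% were higher and 7.2% were lower. The median log2 difference was 0.38 over the members and -0.06 over all genes. A gene that is bright in only 1 group enters the test through that group, so these shares are a description. For 9 members at least 1 of the 6 arrays fell short of that mark, and for 5 of these an entire group did. At any fold, 21 members were higher (50% against 23% of all genes) and 7 were lower (16.7% against 28.5%), 28 in all (66.7% against 51.6%). The values of the 2 groups did not overlap for 29 members, or 69%, against 64% of all genes. The families differed in their counts: 7 of 16 tested Mmp genes, 2 of 12 Adam genes, 5 of 9 Adamts genes, 1 of 2 Adamtsl genes and 2 of 3 Timp genes were higher. Both lower genes were Mmp genes.

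**Figure D1:**
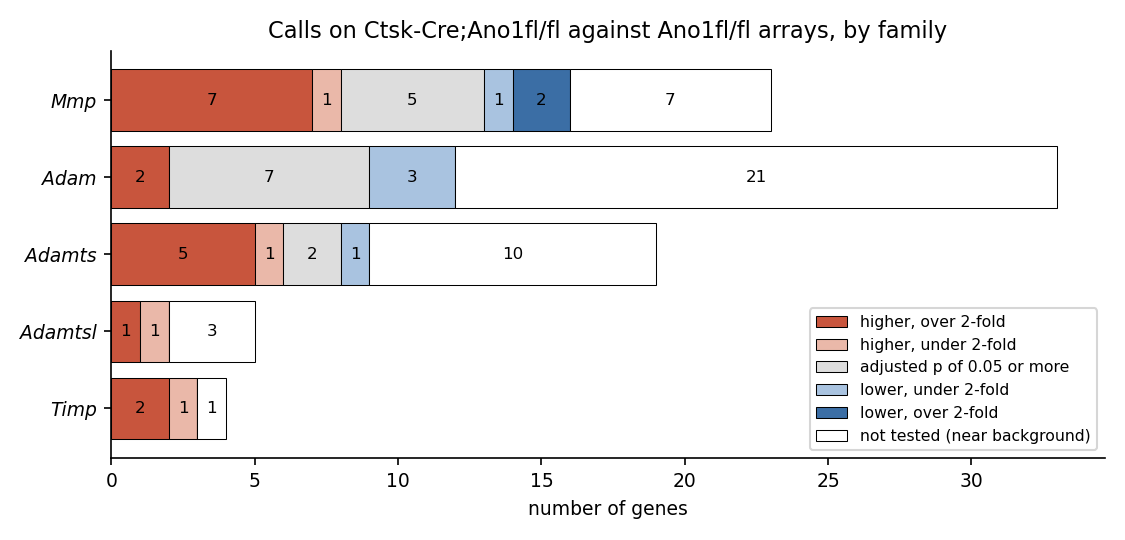
Number of genes in each family by call, Ctsk-Cre;Ano1fl/fl against Ano1fl/fl arrays (n = 3 arrays per group). Red segments are genes called higher and dark blue genes called lower past 2-fold, pale segments passed the test under 2-fold, and white segments were not tested. The Adam family has the longest untested segment, with 21 of 33 genes.

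Both gelatinases, which cut denatured collagen and type IV collagen, were higher. Mmp9, the gelatinase that osteoclasts secrete, had log2 signals of 11.52, 12.04 and 11.94 on the Ano1fl/fl arrays against 16.20, 16.41 and 15.98 on the Ctsk-Cre;Ano1fl/fl arrays. The groups lay far apart beside a spread of 0.28 and 0.21 (SD, n = 3), with a difference of 4.36 ± 0.17 (SE) and an adjusted p of 1.7e-05 in limma. A second Mmp9 probe gave 3.88 ± 0.13, with an adjusted p of 1.26e-05. Its sequence is shown because Mmp9 is the member best known from osteoclasts: the 60 bases lie over 1210 bases of the mm9 genome at chr2:164779091-164780300, so they bridge an intron and read spliced RNA.
Mmp9 probe: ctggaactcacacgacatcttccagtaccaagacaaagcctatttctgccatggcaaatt

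Mmp2, the gelatinase known from stromal cells, was not well above background on any Ano1fl/fl array, at 3.98, 3.07 and 2.92. It was above background on all 3 Ctsk-Cre;Ano1fl/fl arrays, at 9.11, 8.56 and 8.17. Against the lowest signal that counts as well above background, Mmp2 was at least 25-fold higher. The adjusted p of 9.07e-05 is that of the fitted difference of 5.29 in limma, and the limit itself was not tested. Such limits hold for the processed signal: with normexp background correction, which here also adds an offset of 50 to each signal, the log2 difference of Mmp2 was 2.58, and with the series matrix, which holds median spot brightness with no background taken off, it was 3.34. Mmp14, a membrane-type enzyme that activates the proform of Mmp2, was measured on all arrays. Its log2 signals were 9.56, 9.33 and 9.59 on the Ano1fl/fl arrays against 11.62, 11.75 and 11.36 on the Ctsk-Cre;Ano1fl/fl arrays, a difference of 2.08 ± 0.13 (SE) with an adjusted p of 7.52e-05. Timp2, the inhibitor that holds pro-Mmp2 to Mmp14, is described with the other inhibitors below. The Mmp14 probe, at chr14:55058775-55058834 (mm9), is the single probe of this activator on the array.
Mmp14 probe: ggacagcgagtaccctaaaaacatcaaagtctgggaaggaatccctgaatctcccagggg

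Among the other membrane-type enzymes, Mmp25 moved in the other direction. Mmp25 is anchored to the surface of leukocytes and is known from neutrophils. Its log2 signals were 6.35, 6.59 and 6.30 on the Ano1fl/fl arrays, whereas no Ctsk-Cre;Ano1fl/fl array read it above background. Mmp25 was thus at least 5.31-fold lower there (adjusted p of the fitted difference 3.76e-05). With normexp and with the series matrix its log2 difference was -1.06 and -1.40. Of the 10 neutrophil markers 5 were lower past 2-fold and 2 under 2-fold, Ltf was higher by 0.33 (adjusted p 0.0288), and S100a9 and Camp did not pass the test, with a median log2 difference of -1.33. Mmp17, also anchored by a lipid, differed by 0.30 (95% interval -0.06 to 0.65) and did not pass the test. Mmp15 and Mmp16 were above background on 2 and 1 of the Ctsk-Cre;Ano1fl/fl arrays and on none of the others, and Mmp24 was below background throughout.

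**Figure D2:**
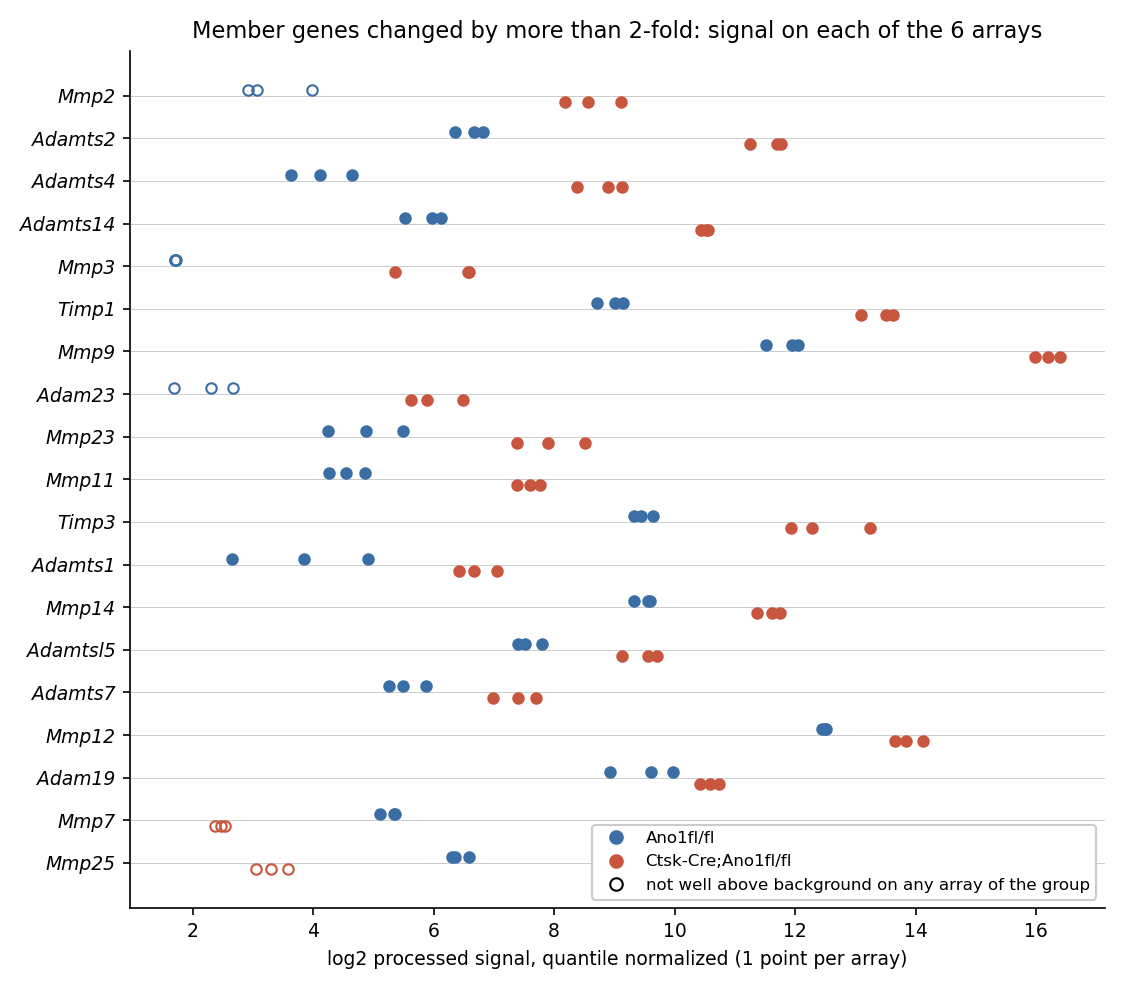
Log2 processed signal of the brightest probe of the 19 called genes on each of the 6 arrays, blue for Ano1fl/fl and red for Ctsk-Cre;Ano1fl/fl, with open points where no array of the group was well above background. No gene shown has overlapping groups, and Mmp25 and Mmp7 are the 2 with the red points on the left.

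Of the 4 collagenases, which make the first cut in fibrillar collagen, 2 were tested and neither changed past 2-fold. Mmp13, the main collagenase of mouse bone, had log2 signals of 9.16, 10.20 and 10.04 on the Ano1fl/fl arrays against 9.62, 9.71 and 9.45 on the Ctsk-Cre;Ano1fl/fl arrays. The groups overlapped, and the difference was -0.21 (95% interval -0.86 to 0.44, adjusted p 0.544). The first Ano1fl/fl array held the lowest of these signals, and without it the difference was -0.53 with an adjusted p of 0.0167. Mmp8, the collagenase stored in neutrophil granules, rose by 0.76 ± 0.09 (SE), from 13.67 ± 0.07 to 14.43 ± 0.10 (SD, n = 3, adjusted p 0.000693). The 10 neutrophil markers had a median of -1.33 but did not move as 1 group. While 5 were lower past 2-fold and 2 under 2-fold, Ltf was higher by 0.33, and S100a9 and Camp did not pass the test. Mmp1a and Mmp1b were below background on all arrays.

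Stromelysins, the matrilysin Mmp7 and the macrophage elastase Mmp12 diverged. Mmp3, stromelysin 1, was at 1.72, 1.70 and 1.71 on the Ano1fl/fl arrays, all below background. On the Ctsk-Cre;Ano1fl/fl arrays it was at 6.56, 6.59 and 5.36, at least 4.59-fold higher (adjusted p of the fitted difference 0.000141). Its log2 difference was 1.12 with normexp and 1.81 with the series matrix. Mmp10, stromelysin 2, did not differ detectably, at 4.60, 6.50 and 5.50 against 5.86, 5.42 and 5.16, with a 95% interval of -1.18 to 1.07. The Ano1fl/fl signals of Mmp10 were spread widely (SD 0.95, n = 3). Mmp11, stromelysin 3, rose by 3.03 ± 0.18 (SE, adjusted p 6.28e-05), and by 1.58 with normexp and 2.02 with the series matrix.

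Mmp12 was bright on all arrays, at 12.52, 12.45 and 12.50 on the Ano1fl/fl arrays against 13.84, 14.12 and 13.65 on the Ctsk-Cre;Ano1fl/fl arrays. The groups did not overlap, and its 3 probes gave differences of 1.38, 2.05 and 2.32, each past the threshold. Mmp7 lay the other way round, with 5.35, 5.11 and 5.34 on the Ano1fl/fl arrays and no Ctsk-Cre;Ano1fl/fl array above background. It was at least 2.40-fold lower by its brightest probe and at least 1.27-fold lower by the other. The adjusted p of the fitted differences in limma was 1.26e-05 and 0.000155. The call of the brightest probe did not hold with normexp or with the series matrix, where the log2 difference was -0.55 and -0.96, under 2-fold.

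Mmp12 and Mmp7 come from related genes of 1 cluster and moved in opposite directions, so the sequences of a probe of each are given to show how far they share bases. The longest run in common, in capitals, is 8 bases. Between tested probes of any 2 different members the longest shared run was 12 bases of 60. The Mmp12 probe lies at chr9:7352935-7352994 and the Mmp7 probe at chr9:7697641-7697700 (mm9).
Mmp12 probe: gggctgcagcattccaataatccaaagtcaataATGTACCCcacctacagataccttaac
Mmp7 probe: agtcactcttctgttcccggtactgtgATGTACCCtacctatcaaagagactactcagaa

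These 2 genes belong to a row of 10 Mmp genes on chromosome 9, whose probes extend over 416.8 kb, chr9:7282762-7699535 in mm9. In genomic order the genes are Mmp13, Mmp12, Mmp1b, Mmp3, Mmp1a, Mmp10, Mmp8, Mmp27, Mmp20 and Mmp7. Of the 7 that could be tested, Mmp12 and Mmp3 were higher past 2-fold and Mmp7 was lower, Mmp8 was higher and Mmp27 lower by less than 2-fold, and Mmp13 and Mmp10 did not pass the test. Neighbours along the cluster thus differed in direction: Mmp8 rose by 0.76, whereas Mmp27, the next gene, fell by 0.37 (adjusted p 0.00817).

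**Figure D3:**
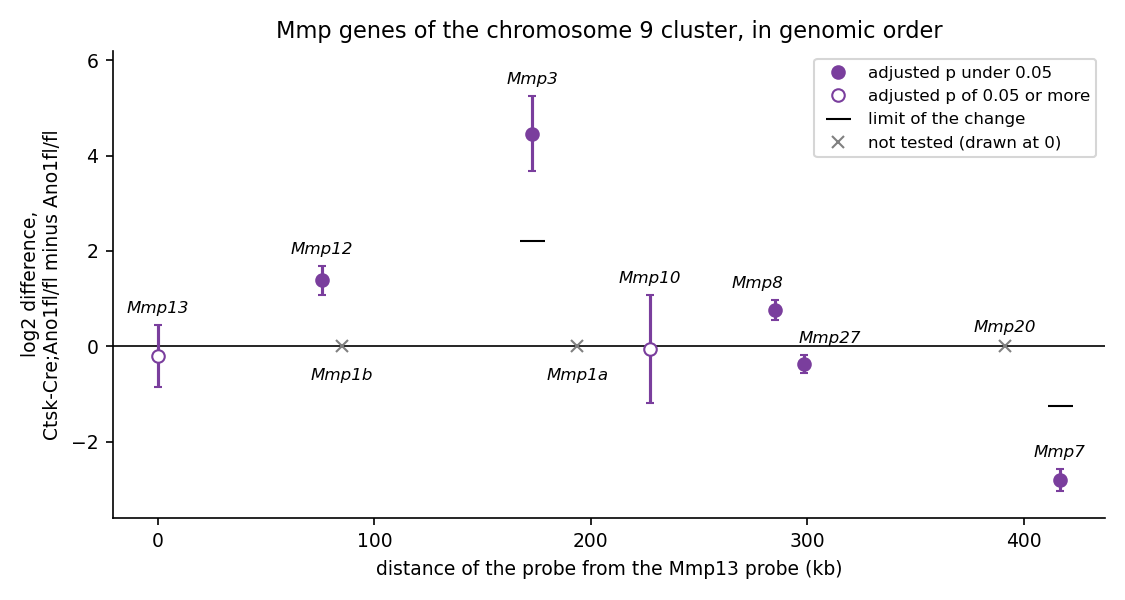
Log2 difference (Ctsk-Cre;Ano1fl/fl minus Ano1fl/fl, n = 3 arrays each) of the Mmp genes of the chromosome 9 cluster against the distance of their probes from the Mmp13 probe in kb, with 95% intervals from limma. Mmp3 stands highest and Mmp7, 416.7 kb from Mmp13, lowest, and black dashes mark the limit of the change where 1 group was below background.

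Promoters of the cluster were read from RefSeq (GRCm38.p6), 250 bases before to 50 after the start of each gene. The motif TGANTCA, bound by AP-1 dimers of Fos and Jun proteins, was searched on both strands. It was found for 8 of the 10 cluster genes and for 5 of the 43 members elsewhere that had an entry, which is 24.5% of the 53 members with an entry against 8.97% of all 27025 genes and 7.81% of all 32851 windows. TATAAA, searched on the strand of the gene only, was found for 22.6% of these members and 9.77% of all genes, and its letters cannot overlap those of the other motif. By call, TGANTCA was found for 3 of 13 members higher past 2-fold and 1 of 2 lower. Under 2-fold it was found for 0 of 4 higher and 0 of 3 lower. It was found for 2 of 7 that did not pass the test and 7 of 24 not tested. Genes with the motif included Mmp3 and Mmp12, which rose, and Mmp7, which fell. Mmp10 and Mmp13 also held it and did not pass the test, so the motif did not go with a single direction. The 100 bases before the start of these 5 genes are printed to show the place of the motif, in capitals, which begins at -46 in Mmp3, -44 in Mmp12, -63 in Mmp10, -35 in Mmp13 and -63 in Mmp7. All are on the plus strand, at chr9:7445722-7445821, chr9:7347274-7347373, chr9:7502242-7502341, chr9:7272414-7272513 and chr9:7691990-7692089 in the same order.
Mmp3 promoter: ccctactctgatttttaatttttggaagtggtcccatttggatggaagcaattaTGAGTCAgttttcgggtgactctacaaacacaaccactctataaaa
Mmp12 promoter: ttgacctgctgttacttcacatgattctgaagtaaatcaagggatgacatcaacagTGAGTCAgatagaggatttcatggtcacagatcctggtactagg
Mmp10 promoter: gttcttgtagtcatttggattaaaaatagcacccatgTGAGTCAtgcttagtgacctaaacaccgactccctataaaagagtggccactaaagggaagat
Mmp13 promoter: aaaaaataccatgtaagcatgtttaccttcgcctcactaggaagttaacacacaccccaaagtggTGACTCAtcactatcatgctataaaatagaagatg
Mmp7 promoter: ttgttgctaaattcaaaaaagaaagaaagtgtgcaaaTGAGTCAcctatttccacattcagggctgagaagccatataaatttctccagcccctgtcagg

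The remaining Mmp genes showed 1 further change past 2-fold. Mmp23, a membrane enzyme of unusual structure, had log2 signals of 4.24, 4.88 and 5.48 on the Ano1fl/fl arrays against 8.51, 7.90 and 7.38 on the Ctsk-Cre;Ano1fl/fl arrays, a difference of 3.07 ± 0.39 (SE, adjusted p 0.00114), or 1.69 with normexp. Mmp19, at 12.28 ± 0.18 and 12.24 ± 0.13 (SD, n = 3), differed by -0.03 (95% interval -0.33 to 0.26), and its second probe by -0.04. Mmp28 differed by 0.25 (adjusted p 0.0923).

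Among the ADAMTS genes, Adamts2 and Adamts14, whose enzymes remove the amino-terminal propeptide of fibrillar procollagens, were both higher. Adamts2 had log2 signals of 6.82, 6.67 and 6.34 on the Ano1fl/fl arrays against 11.77, 11.70 and 11.26 on the Ctsk-Cre;Ano1fl/fl arrays. That is a difference of 4.96 ± 0.18 (SE, adjusted p 1.28e-05), although its other 2 probes were above background on only 1 Ctsk-Cre;Ano1fl/fl array each. With normexp the difference of Adamts2 was 4.33. Adamts14 had signals of 5.53, 5.97 and 6.12 against 10.44, 10.53 and 10.55, and its 2 probes differed by 4.63 and 4.52 (adjusted p 1.21e-05 and 7.89e-06). The first of these was 3.62 with normexp and 4.001 with the series matrix. Adamts3, the remaining enzyme of this kind, was below background on all arrays. Of the 12 stromal markers 11 were higher as well, type I and III collagen genes among them, and Thy1 did not pass the test, with a median log2 difference of 4.64.

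Of the 7 proteoglycanases, which cut aggrecan and versican, 3 were tested, and all 3 rose, 2 of them past 2-fold. Adamts4 was above background on 2 of the 3 Ano1fl/fl arrays, at 4.65, 4.11 and 3.63, and on all Ctsk-Cre;Ano1fl/fl arrays, at 9.12, 8.89 and 8.38. Its difference was 4.67 ± 0.30 (SE, adjusted p 8.27e-05), or 2.66 with normexp, and 2 further probes, below background on the Ano1fl/fl arrays, were at least 16.8-fold and at least 4.16-fold higher. Adamts1 varied more, at 4.91, 3.85 and 2.66 on the Ano1fl/fl arrays, of which 1 was above background, and 6.67, 7.05 and 6.41 on the Ctsk-Cre;Ano1fl/fl arrays, a fitted difference of 2.91 ± 0.54 (SE, adjusted p 0.00506). This size rests on signals near background, and it was 1.09 with normexp and 1.48 with the series matrix. Adamts20 rose by 0.63 (adjusted p 0.041), under 2-fold. Adamts5, a main aggrecanase of mouse cartilage, was above background on only 1 Ctsk-Cre;Ano1fl/fl array.

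Other ADAMTS genes went both ways. Adamts7, which cuts cartilage oligomeric matrix protein, rose by 1.82 ± 0.22 (SE, adjusted p 0.00101), and by 1.06 with normexp. Adamts10, a partner of fibrillin, fell by less than 2-fold by its brightest probe, with a log2 difference of -0.67 (adjusted p 0.00116), its other 3 tested probes gave -0.98, -1.10 and -1.15, and 1 further probe was above background on 2 Ano1fl/fl arrays only. Adamts6 and Adamts18 did not pass the test. Adamtsl proteins share the ancillary domains of these enzymes but lack the proteinase domain. Adamtsl5 rose by 1.89 and 2.36 on its 2 probes (adjusted p 0.000357 and 0.00021), and Adamtsl4 rose by 0.32 (adjusted p 0.0231) on its brightest probe and differed by 0.10 on the other (adjusted p 0.619).

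The ADAM genes had a median log2 difference of -0.02 over 12 tested genes, against 0.53 over 16 Mmp genes and 1.82 over 9 Adamts genes. The sheddases Adam10 and Adam17, which release TNF, Notch fragments and growth factor precursors, are expressed in most cells. Adam10 fell from 13.10 ± 0.07 to 12.57 ± 0.08 (SD, n = 3), a difference of -0.53 with an adjusted p of 0.00244, and its second probe gave -0.67. Adam17 had log2 signals of 13.12, 12.72 and 12.73 on the Ano1fl/fl arrays against 12.96, 12.96 and 12.56 on the Ctsk-Cre;Ano1fl/fl arrays, with overlapping groups and a difference of -0.03 (95% interval -0.42 to 0.36). Its 2 dimmer probes gave -0.29 (adjusted p 0.0575) and -0.77 (adjusted p 0.0191), so the size of any change in Adam17 depends on the probe. Adam8, known from granulocytes and from osteoclast fusion, had signals of 16.09, 16.06 and 16.05 against 15.66, 15.51 and 15.49. The groups did not overlap, and Adam8 fell by 0.51 (adjusted p 0.00251), while its second probe gave -0.77 (adjusted p 0.0264).

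Past 2-fold, 2 ADAM genes were higher. Adam23, a surface protein without proteinase activity that binds integrins, was below background on all Ano1fl/fl arrays and at 6.49, 5.89 and 5.62 on the others. It was hence at least 4.09-fold higher (adjusted p of the fitted difference 0.000213), while its other 4 probes were below background on all 6 arrays. With normexp its log2 difference was 0.93, under 2-fold, and with the series matrix it was 1.44. Adam19 had signals of 8.93, 9.60 and 9.98 against 10.59, 10.43 and 10.74, a difference of 1.08 ± 0.26 (SE, adjusted p 0.0144). The lowest Ano1fl/fl signal of Adam19 was on the first array, and without that array the difference was 0.79 (adjusted p 0.0128), under 2-fold. Adam33 fell by 0.71 and 0.96 on the 2 of its 5 probes that were tested (adjusted p 0.0143 and 0.00463). Adam9, Adam11, Adam12, Adam15, Adam1a and Adam32 did not pass the test by their brightest probe, but the dimmer probe of Adam11 was lower, at -1.05 (adjusted p 0.00672). Adam9 had the narrowest interval of these 6, with a difference of -0.02 (95% interval -0.19 to 0.15). Of the 21 untested ADAM genes many are known from the testis, such as Adam2, Adam18 and Adam24, which were below background on all arrays.

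**Figure D4:**
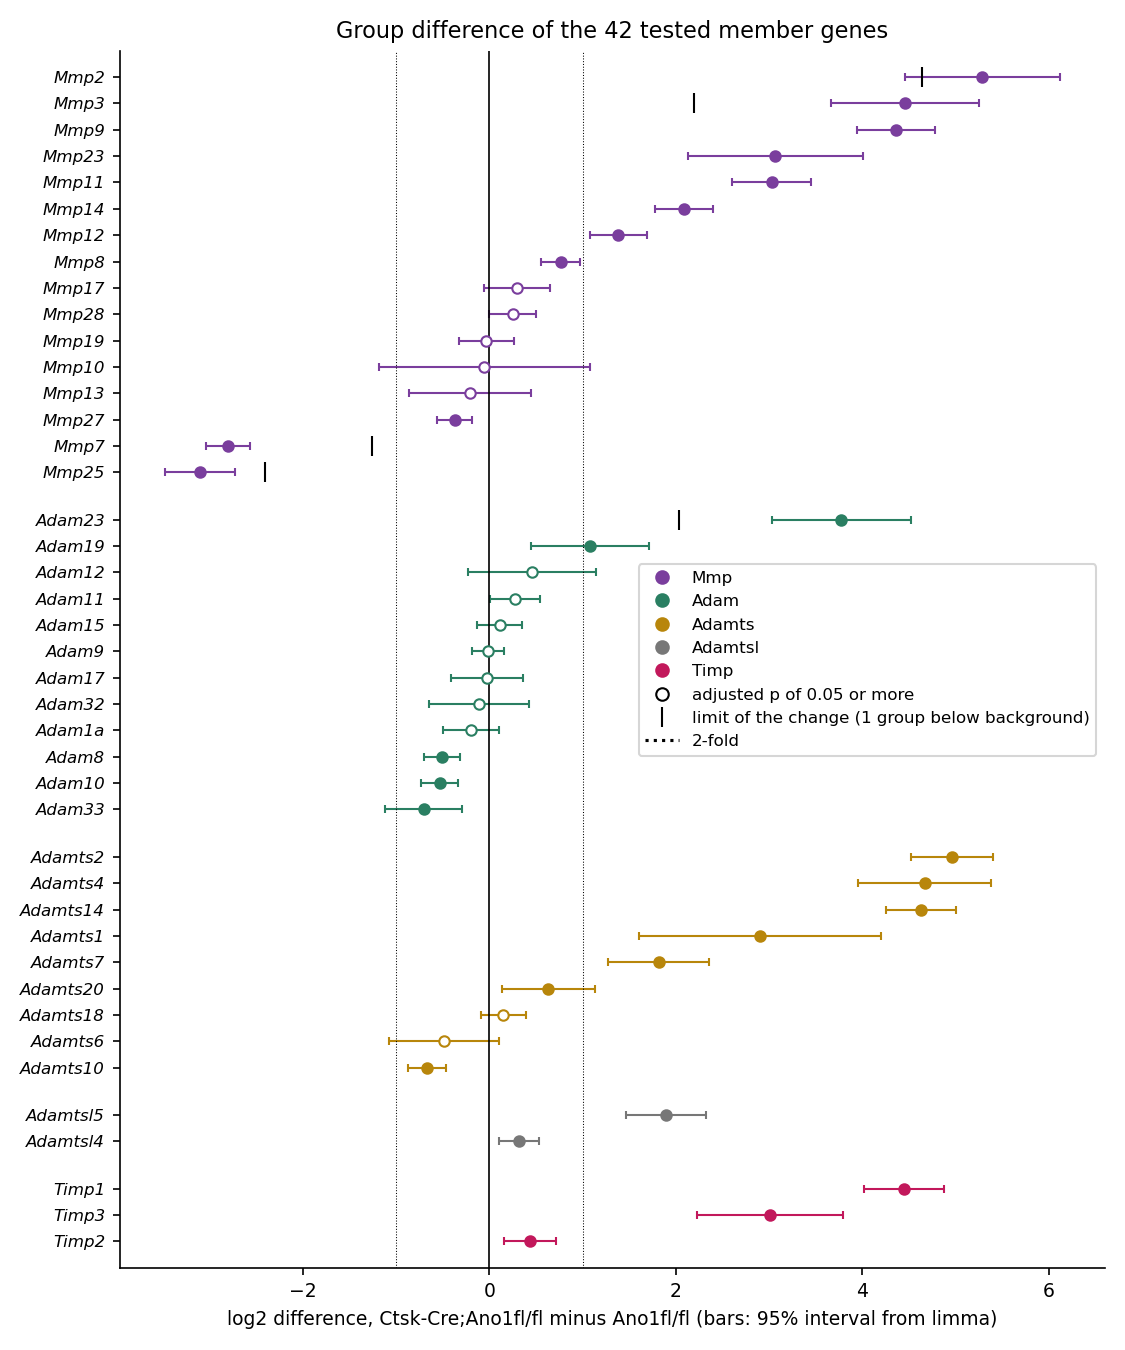
Log2 difference (Ctsk-Cre;Ano1fl/fl minus Ano1fl/fl, n = 3 arrays each) of the brightest probe of the 42 tested genes, by family, with 95% intervals from limma. Filled points passed an adjusted p of 0.05, black ticks give the limit where 1 group was below background, and dotted lines mark 2-fold; Mmp2 lies farthest right and Mmp25 farthest left by the fitted difference, but the limit for Mmp2, 4.64, lies left of Adamts2 at 4.96.

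All 3 tested inhibitors rose, but by very different amounts. Timp1, a secreted inhibitor that binds the proform of Mmp9, had log2 signals of 9.15, 9.01 and 8.71 on the Ano1fl/fl arrays against 13.63, 13.51 and 13.09 on the Ctsk-Cre;Ano1fl/fl arrays. The difference was 4.45 ± 0.18 (SE, adjusted p 1.7e-05), next to 4.36 for Mmp9, and the proteins were not measured. Timp3, which binds to the matrix and also blocks ADAM17 and the aggrecanases, had signals of 9.32, 9.45 and 9.65 against 13.24, 12.29 and 11.93. Its 3 probes gave 3.01, 2.98 and 2.95 (adjusted p 0.000607, 0.000395 and 0.000921), with the first Ctsk-Cre;Ano1fl/fl array highest on each. Timp2, at 14.56, 14.33 and 14.41 against 14.97, 14.97 and 14.66, rose by 0.44 ± 0.12 (SE, adjusted p 0.0209) and by 0.53 on its second probe (adjusted p 0.00676). The smaller value did not hold its call without Ano1fl/fl replicate 2 or 3 or without Ctsk-Cre;Ano1fl/fl replicate 1 or 2, where the adjusted p was 0.0602 to 0.071. Timp4 was above background on 1 array of each group and was not tested. Timp1 is the inhibitor with the largest change, and its single probe lies at chrX:20451675-20451733 (mm9).
Timp1 probe: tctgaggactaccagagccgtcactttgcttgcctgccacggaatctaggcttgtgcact

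Genes with several probes allow a check of each value on the same arrays. Of the 18 members with at least 2 tested probes, 12 passed the test in 1 direction on all of them, 3 on some and 3 on none, and no gene had probes that passed in opposite directions. At any fold, 47 of the 67 tested probes passed, or 70.1%, against 52.4% of all probes. Past 2-fold by the fitted difference, 26 of these probes were higher, or 38.8%, and 6 were lower, or 8.96%, against 8.91% and 8.11% of all 31848 probes.

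**Figure D5:**
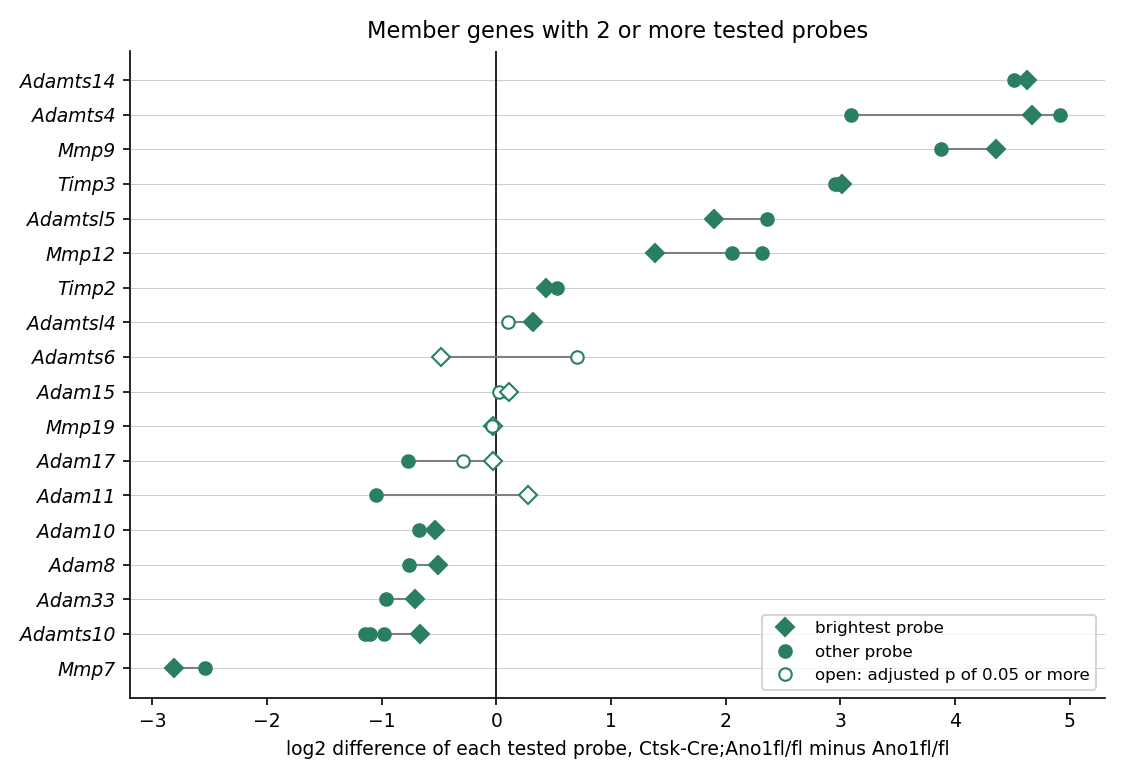
Log2 difference (Ctsk-Cre;Ano1fl/fl minus Ano1fl/fl, n = 3 arrays each) of every tested probe of the 18 genes with at least 2, diamonds for the brightest probe, open symbols for an adjusted p of 0.05 or more. The probes of Adamts4 and Adam11 lie farthest apart among genes with a filled symbol, and Adam11 and Adamts6 have probes on both sides of 0.

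Partners of these enzymes outside the families were counted from lists of known activators, inhibitors and relatives. The counts stand beside the 9.9% of all tested genes that were higher past 2-fold. Among the activators and brakes of metalloproteinases, 15 of 20 genes were tested, 5 were higher past 2-fold by the fitted difference, the lowest difference was -0.59 (Thbs1, under 2-fold), and the median log2 difference was 0.48. Thbs2, a thrombospondin that binds Mmp2 for uptake, was at least 24.1-fold higher, and Serpine2, an inhibitor of thrombin and other serine proteinases, rose by 2.45. Tfpi2, an inhibitor of plasmin and other serine proteinases, and Plat, the tissue plasminogen activator, are among these 5 but were below background on the Ano1fl/fl arrays, with limits of only 1.67-fold and 1.73-fold. Reck, a membrane-anchored inhibitor, rose by 0.74, under 2-fold, and Furin, the convertase that activates Mmp11 and Mmp14, did not pass the test (0.11, adjusted p 0.207). Of 10 partners of ADAM10 and ADAM17, 2 were higher: Tspan10, a tetraspanin that guides ADAM10, by at least 4.86-fold, and Rhbdf1, which guides ADAM17, by 2.23. The median over these partners was 0.05. Among 6 tested metzincins of other families, 4 were higher, with Pappa, which cuts an IGF binding protein, at least 6.51-fold higher and Bmp1, which removes the carboxy-terminal propeptide of procollagen, higher by 3.46 ± 0.23 (SE). Mep1a, a meprin subunit, was at least 2.97-fold higher, and the limit for Pappa2, a relative of Pappa, was 1.61-fold.

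Among the genes not tested, 30 had no probe well above background on any array and 12 had 1 on some arrays only, which sets a limit of detection and not an absence of the transcript. The size of changes in dim genes depended on the treatment of background, whereas with normexp the log2 differences of the bright genes Mmp9 and Mmp14 were 4.33 and 2.01.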

How the data were processed

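Total RNA of 6 cultures, 3 per genotype, was labelled with Cy3 and read on Agilent arrays of 62976 spots. The authors deposited the scanner output of Agilent Feature Extraction 10.7.1.1, whose processed signal is a background-subtracted intensity on a linear scale, not yet normalized between arrays. A further table that the authors deposited, the series matrix, holds intensity values equal to the median brightness of each spot (largest difference 0 over 62973 values per array). The methods name the quantile algorithm, so signals were put on the log2 scale and quantile normalized with limma 3.58.1 in R 4.3.3, with outlier spots missing, control spots left out and spots of a probe averaged. Missing values removed 14 probes. Of 59305 transcript spots, 33480 to 34951 per array were well above background by the scanner's mark, and the number of arrays limits the precision.

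A probe was tested where at least 0.5 of its spots were well above background on all 3 arrays of 1 group. The groups were compared in limma (lmFit and eBayes), with Benjamini-Hochberg adjustment over 31848 probes, and a gene stood for its brightest probe. The code was tested on simulated data. A fold against a group below background on all its arrays is a lower limit: for each of those arrays the dim probe was set to the faintest well-measured signal, if that was higher. Such limits were not tested, and an adjusted p given with a limit is that of the fitted difference. Each array stands for 1 mouse. The labels do not say whether a shared replicate number pairs 2 arrays, so the main fit took them as unpaired. Alternatives were other scalings, background corrections, filters, folds and tests, leaving out each array and a replicate block. The members and lists were chosen with earlier results of these data known. The genes named are those called, the Timp genes, Mmp2, Mmp9, Mmp13, Mmp14, Adam8, Adam10, Adam17 and the largest changes of each list; other members and list genes were named after their values were seen, to account for each family. The value of 1 list gene is not reported here. Positions and gene names are those of the array files (mm9), and 127 of 132 member probes with a RefSeq accession matched the RefSeq gene table. Promoters are those of RefSeq (GRCm38.p6). No genome was used, so the exon or untranslated region under a probe is not given. Python 3.11.15, pandas 2.3.3 and matplotlib 3.10.9 were used for counts and plots.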

Additional observations from a re-analysis of the deposited data

How the results depend on the processing

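The number of higher member genes, 17 of 42, was 12 to 20 over the alternatives, but the totals differed. It was 12 of 33 genes measured on all 6 arrays and 20 of 84 with no filter on dim probes. When 1 array was left out the number was 16 to 17 (16 without Ano1fl/fl replicate 1). The 2 lower genes, Mmp25 and Mmp7, remained 2 when any 1 array was left out, became 1 with normexp correction and 1 with the series matrix, and 4 at 1.5-fold. A filter asking for all 6 arrays left 33 genes and 0 lower ones in limma, since both lower genes were below background on the Ctsk-Cre;Ano1fl/fl arrays. Of those 33, 0 were lower at an unadjusted p under 0.05 past 2-fold and 5 at any fold, and the methods' t-test without that filter called 2. The difference of Adam17, -0.03 and not called, turned to 0.0115 with the series matrix and 0.0983 without Ano1fl/fl replicate 1, ranged from -0.0981 to 0.1009 (without Ctsk-Cre;Ano1fl/fl replicate 1 and 3) when 1 array was left out, and was -0.37 (adjusted p 0.0486) as the mean of its probes. The causes were not tested. Timp2 no longer passed the test with 75th percentile scaling (0.33, adjusted p 0.06) and in the methods' t-test (adjusted p 0.0512), and Adam19 without a filter on dim probes (adjusted p 0.0502) and in that t-test (adjusted p 0.0586). Of 377 values for 24 named genes under the alternatives, 364 kept their direction and their side of the adjusted p of 0.05, 8 lost and 2 gained it, and 3 turned sign. Of the 297 values of genes also past 2-fold, 4 more passed that p but not 2-fold: Adam23 (0.93) and Mmp7 (-0.55) with normexp, Mmp7 (-0.96) with the series matrix and Adam19 (0.79) without Ano1fl/fl replicate 1. Same-numbered arrays did not deviate together (correlations -0.022, -0.085 and -0.094), which at 3 arrays per group cannot show whether they were paired. A replicate block gave 17 higher and 2 lower genes. The median over all genes moved from -0.06 to -0.12 with 75th percentile scaling. Differences of dim genes were smaller with normexp correction and its offset of 50, for example 2.58 for Mmp2, 1.58 for Mmp11, 1.69 for Mmp23, 1.09 for Adamts1, 2.66 for Adamts4 and 1.06 for Adamts7.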
